A study of Mus musculus with 5 samples.

Results

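Endothelial and mesenchymal cells of β1AT2-KO lungs were compared between mice given lipopolysaccharide (LPS) and mice given PBS, 7 days after treatment. Both groups were SP-C rtTA Tet-O-Cre β1fl/fl mice (Itgb1 iKO in the sample labels), in which doxycycline switches on Cre under the surfactant protein C promoter and removes the β1 integrin gene Itgb1 from alveolar type 2 (AT2) epithelial cells. That promoter is not active in endothelium or mesenchyme, so the cells described here were not the target of the deletion, and every mouse of the comparison carried it in its AT2 cells. Doxycycline had been given in drinking water from a young age and withdrawn for a month before the adult mice, then 3 months old, received a single intratracheal dose of LPS or an equal volume of PBS. LPS-treated β1fl/fl littermates without Cre, also at 7 days, are given beside some values, but no β1fl/fl mice given PBS were analysed here.

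Viable CD45-, Ter119- lung cells of several mice were labelled with hashtag antibodies, pooled within the group and sequenced as 1 droplet library. Each library had 3 hashtags in use, and each hashtag is taken here as 1 mouse, which the sample labels do not state. A cell was kept if it had at least 700 genes and 0.1 to 15% mitochondrial UMIs (unique molecular identifiers, the count of captured RNA molecules). Endothelial cells had at least 2 UMIs of the junction genes Cdh5 and Pecam1 together and none of Epcam, Pdgfra, Pdgfrb or Ptprc. Mesenchymal cells had at least 2 UMIs of the collagen gene Col1a2 and none of Cdh5, Pecam1, Epcam or Ptprc. These rules took 5027 endothelial and 552 mesenchymal cells after LPS and 7973 and 103 after PBS, together 13655 of the 15911 cells kept in both libraries and of the 29500 kept in the whole series. Of them, 10831 carried a single hashtag and were assigned to a mouse.

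The alveolar wall holds a dense capillary bed of 2 intermingled endothelial types, the general capillary cells, which can divide and replace lost neighbours, and the aerocytes, large thin cells across which gas is exchanged. Arteries, veins and lymphatics are lined by their own endothelial types. The mesenchyme includes alveolar and adventitial fibroblasts, pericytes and smooth muscle, which lay down collagens and other matrix and supply growth factors to the epithelium. After an inhaled inflammatory injury the capillary bed is rebuilt by cell division, and fibroblasts pass through a phase of matrix production.

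The kept cells had a median of 2677 UMIs after LPS and 2196 after PBS, and endothelial sums per mouse held 3772343 to 6138184 UMIs. Mesenchymal sums held 235889 to 1208465 UMIs per LPS-treated mouse but 6186 to 23072 per PBS-treated mouse, from 7, 2 and 3 cells. A single hashtag was read on 80.9% of endothelial cells after LPS and 81.2% after PBS, but on 276 of 552 mesenchymal cells after LPS (50%) and 12 of 103 after PBS (11.7%), the rest having mostly none. All mice of a group shared a library, so the effects of library and treatment cannot be told apart, and p-values measure the spread between mice within libraries. Both libraries had 102 cell barcodes in common, 1.41% of the smaller. By Xist and Y-linked transcripts, 1 of the 3 PBS-treated mice (mouse 1) was female and the other mice of both groups were male, whereas the 3 LPS-treated β1fl/fl mice were female.

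Markers of other cell types were higher in the endothelial cells after LPS. In endothelial cells the summed level of 13 AT2 markers was 484 to 929 CPM (the UMIs of a gene per 1000000 UMIs of the sum) in the PBS-treated mice and 4333 to 5948 in the LPS-treated mice. The 20 immune markers summed to 37.4 to 60.8 and 261 to 333 CPM, with Marco, Ms4a1 and Nkg7 at 0 in every mouse, and the 10 mesenchymal check markers to 729 to 1198 and 2002 to 2591 CPM. The 10 endothelial check markers summed to 20739 to 22879 CPM in the endothelial cells of the PBS-treated mice and 15056 to 18117 in those of the LPS-treated mice, and to no more than 2263 CPM in any mesenchymal sum. The 10 mesenchymal markers summed to 11399 to 60025 CPM in the mesenchymal cells. For lists that hold genes of other cells, an alternative is given in which the AT2 profile of the same library, scaled to Sftpc, was subtracted from each sum. Beyond that, the part of other cells in the results was not tested.

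Itgb1 was present in both compartments. Endothelial cells held 871, 491 and 845 CPM in PBS-treated mice 1 to 3 and 1083, 976 and 1182 in LPS-treated mice 1 to 3, with no overlap, and the difference of 0.44 ± 0.21 (log2 fold change ± SE) did not pass the edgeR test (adjusted p = 0.167). Cells with Epcam UMIs, which include the AT2 cells that the deletion targets, held 161 CPM after PBS, 162 after LPS and 253 in LPS-treated β1fl/fl mice. Mesenchymal cells held 1344, 323 and 1552 CPM in the PBS-treated mice and 742, 721 and 874 in the LPS-treated mice, and these ranges overlapped.

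The endothelial share of the sorted cells was lower after LPS and the mesenchymal share higher. Endothelial cells made up 94.4, 95.3 and 95.2% of the cells of PBS-treated mice 1 to 3 and 82.9, 76.7 and 70.4% of those of LPS-treated mice 1 to 3. The means were 94.97% ± 0.466 (SD, n = 3) and 76.7% ± 6.25, a difference of -18.3 percentage points. Counted with or without a hashtag, endothelial cells were 91.95% of the PBS library and 69.4% of the LPS library. Epithelial cells, gated on Epcam, were 0.311 and 4.06%. The rise of epithelial and mesenchymal cells did not make up the whole endothelial fall. The endothelial gate drops a cell with any UMI of Epcam, Pdgfra, Pdgfrb or Ptprc, and the part of this in the fall was not tested. Mesenchymal cells made up 0.288, 0.0905 and 0.137% after PBS and 2.38, 3.93 and 9.496% after LPS, with means of 0.172% ± 0.103 and 5.27% ± 3.74 (SD, n = 3), a ratio of 30.6. The groups did not overlap in either share, and both exact permutation tests (two-sided) gave p = 0.1, the smallest that 3 mice against 3 can give. The mesenchymal ratio rests on the few PBS cells with a hashtag. Every mesenchymal share also depends on Col1a2, which set the gate and was itself higher in mesenchymal cells after LPS. More such cells and more Col1a2 per cell cannot be told apart in these shares. Over all cells of a library, with or without a hashtag, mesenchymal cells were 7.62% after LPS (exact 95% binomial interval 7.02 to 8.26%) and 1.19% after PBS (0.971 to 1.44%), a ratio of 6.42, and with another rule for reading hashtags the ratio of means was 9.95. These intervals cover counting error only. Without LPS-treated mouse 3, which had the highest mesenchymal share, the ratio of means was 18.3, and without PBS-treated mouse 1 it was 46.2.

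**Figure D1:**
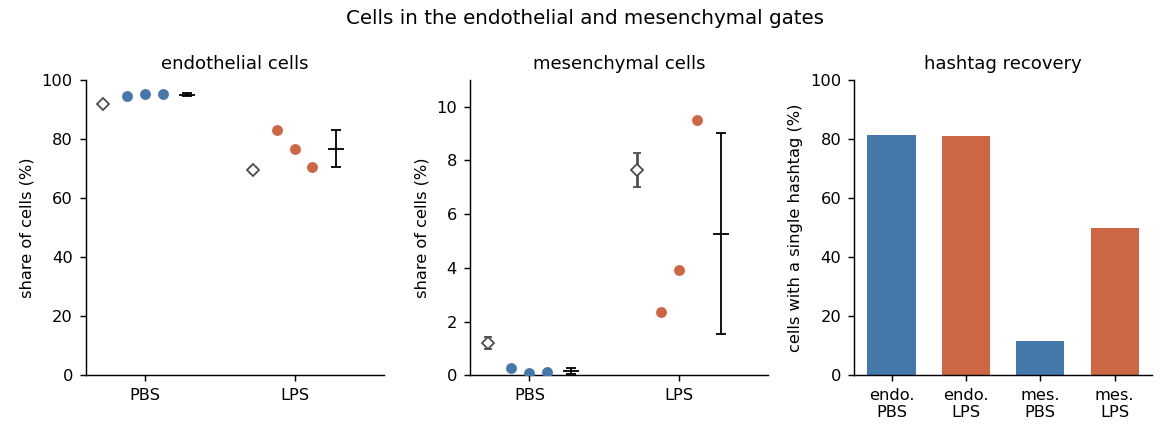
Shares of sorted lung cells in β1AT2-KO mice 7 days after PBS or LPS. The first panels give the endothelial and mesenchymal shares (% of kept cells, dots are mice, black marks the mean ± SD, n = 3, open diamonds all cells of the library with the exact 95% interval), and the last panel the share of cells with a single hashtag, 11.7% for mesenchymal cells after PBS and 50% after LPS.

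Within the endothelium, cells with UMIs of cell division genes were more frequent after LPS and cells with aerocyte genes less frequent. To compare shares at equal depth, each cell was thinned to 1000 UMIs, and a cell was counted when at least 2 UMIs of a gene group remained. Cells with the division genes Mki67, Top2a, Birc5, Cenpf, Tpx2, Nusap1 and Ube2c were 0.354, 0.0479 and 0% of endothelial cells in PBS-treated mice 1 to 3 and 2.98, 3.41 and 12.8% in LPS-treated mice 1 to 3. LPS-treated mouse 3 stood well above the other two, and without it the difference of means was 3.06 in place of 6.25 percentage points. Over the whole libraries 0 of 102 mesenchymal cells after PBS (exact 95% binomial interval up to 3.55%) and 5 of 551 after LPS (0.907%, 0.295 to 2.10%) were counted in the same way.

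Cells with Car4 and Ednrb, which mark aerocytes, were 27.9, 29.8 and 30.6% of endothelial cells after PBS and 18.2, 16.8 and 18.6% after LPS. Every LPS-treated mouse lay below every PBS-treated mouse, and without thinning the shares were 39.3 to 43.9% and 28.8 to 31.1%. Cells with Prox1, Mmrn1 and Ccl21a, genes of lymphatic endothelium, were 0.0884, 0.144 and 0.0974% after PBS and 0.728, 0.819 and 2.89% after LPS. In the PBS-treated mice these were 2, 3 and 2 cells. These 3 groups did not overlap between treatments. Each exact permutation test (two-sided) gave p = 0.1, or 0.2 after Benjamini-Hochberg adjustment over the 10 subset shares.

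The shares of 2 other endothelial groups overlapped between treatments. Cells with the general capillary genes Gpihbp1 and Plvap were 75.0, 69.4 and 71.7% after PBS and 69.3, 70.2 and 62.2% after LPS (exact permutation p = 0.2, adjusted 0.286). Their mean difference of -4.78 points was 2.42 points without thinning. Cells with Vwf and Slc6a2, genes of larger vessels, were 3.05, 4.98 and 6.58% and 5.60, 5.12 and 5.44% (exact permutation p = 0.7, adjusted 0.778), and their mean difference of 0.518 points was 3.16 points without thinning.

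**Figure D2:**
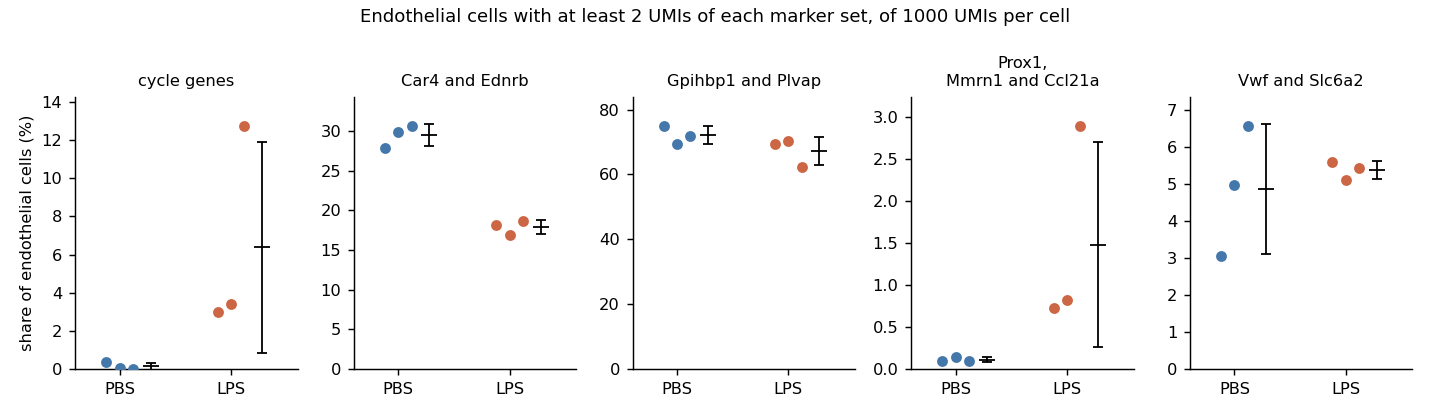
Shares of endothelial cells with at least 2 UMIs of each gene group after thinning every cell to 1000 UMIs (% of endothelial cells, dots are mice, black marks the mean ± SD, n = 3). The shares of cells with the cycle genes, with Prox1, Mmrn1 and Ccl21a and with Car4 and Ednrb did not overlap between PBS and LPS, whereas those of the other groups did.

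Sums per mouse were then tested across all genes with edgeR. In endothelial cells 1308 of 11300 genes rose after LPS (11.6%) and 1273 fell (11.3%), and 4151 had an unadjusted p under 0.05. The counts of list members given below stand beside these shares. Of the called genes, 2451 did not overlap between the mice of the groups, beside 4958 of all 11300 genes tested (43.9%). Among those called, 681 rose by more than 2-fold and 161 fell by more than 2-fold. Without PBS-treated mouse 2 the number called fell from 2581 to 1496, without PBS-treated mouse 3 to 1495, and with the AT2 profile subtracted it was 2358.

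Cell division genes made up the largest rises. Among genes with a mean level high enough to be named, all 10 of the leading rises were genes of the division cycle or of DNA packaging during it, and 50 of the 53 tested genes of a cell cycle list rose, none fell, with a median log2 fold change of 4.23 against 0.00128 over all genes tested. Top2a, the topoisomerase that untangles sister chromosomes, was at 4.89, 0.198 and 0.198 CPM in PBS-treated mice 1 to 3 and 61.97, 80.4 and 227 in LPS-treated mice 1 to 3 (5.84 ± 1.09 on the log2 scale, adjusted p = 0.02597). Mki67, the antigen used to stain dividing cells, was at 2.77, 0 and 0 and 49.3, 61.5 and 168 CPM (6.33 ± 1.10, adjusted p = 0.0206). The PBS-treated mice were near 0 for both, mouse 1 being the highest of them, and LPS-treated mouse 3 held more than the other LPS-treated mice.

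Kif11, a motor protein of the mitotic spindle, had the largest rise, from 0.326, 0 and 0 to 13.7, 13.7 and 54.6 CPM (7.40 ± 1.25, adjusted p = 0.0133). Cdc6, which loads the replication helicase onto origins, rose from 0.163, 0 and 0.198 to 7.75, 5.15 and 14.8 CPM (5.84 ± 0.69, adjusted p = 0.000571). The histone gene Hist1h2af, whose near-identical copies can share reads, rose from 0.326, 0.198 and 0 to 12.1, 24.5 and 38.97 CPM (6.79 ± 0.74, adjusted p = 0.00134). Cdc6 and Hist1h2af kept an adjusted p under 0.05 under every alternative and with any 1 mouse left out. Diaph3, Pclaf, Hmmr, Pimreg, Birc5 and Ccna2 rose by 5.63 to 6.38 on the log2 scale. The number of list members called depended on the PBS-treated mice, being 25, 12 and 10 without PBS-treated mouse 1, 2 or 3 and at least 44 without any 1 LPS-treated mouse, and 1 member was called lower without LPS-treated mouse 3. It was 30 with no filter on low counts and 29 with sex as a term in the model. The adjusted p of Top2a was 0.0771 and 0.0937 without PBS-treated mouse 2 or 3 and 0.0521 without LPS-treated mouse 2, that of Mki67 0.0801, 0.0679 and 0.0776 and that of Kif11 0.113, 0.0618 and 0.0677 without PBS-treated mouse 1, 2 or 3.

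Promoters of the cell cycle genes that rose are shown because many of them hold the same short boxes. The sequences run from 250 bases before to 50 bases after the start, 5′ to 3′ on the gene's strand, from RefSeq on GRCm38.p6, and capitals mark CCAAT boxes, which read ATTGG when they lie on the other strand, the box TTTGAA, found in many late cell cycle promoters and spelled TTCAAA when it lies on the other strand, and the E2F-type box GCGGGAAA. Top2a (chr11:99024140-99024439, minus strand) holds 6 CCAAT and 2 TTTGAA boxes, Kif11 (chr19:37376132-37376431, plus strand) 1 of each, Hmmr (chr11:40733388-40733687, minus strand) 5 and 1, and Cdc6 (chr11:98907901-98908200, plus strand) 1 GCGGGAAA.
Top2a: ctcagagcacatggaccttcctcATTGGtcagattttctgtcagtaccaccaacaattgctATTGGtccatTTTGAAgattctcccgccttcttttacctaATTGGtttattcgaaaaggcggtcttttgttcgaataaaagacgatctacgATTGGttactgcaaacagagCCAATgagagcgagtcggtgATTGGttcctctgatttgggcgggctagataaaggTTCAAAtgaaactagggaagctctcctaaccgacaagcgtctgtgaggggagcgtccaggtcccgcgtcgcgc
Kif11: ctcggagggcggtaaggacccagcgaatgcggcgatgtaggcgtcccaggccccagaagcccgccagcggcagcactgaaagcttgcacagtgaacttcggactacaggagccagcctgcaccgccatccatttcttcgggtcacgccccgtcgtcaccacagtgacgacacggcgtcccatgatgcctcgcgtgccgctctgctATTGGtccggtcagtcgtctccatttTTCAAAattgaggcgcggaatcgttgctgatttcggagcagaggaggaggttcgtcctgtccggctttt
Hmmr: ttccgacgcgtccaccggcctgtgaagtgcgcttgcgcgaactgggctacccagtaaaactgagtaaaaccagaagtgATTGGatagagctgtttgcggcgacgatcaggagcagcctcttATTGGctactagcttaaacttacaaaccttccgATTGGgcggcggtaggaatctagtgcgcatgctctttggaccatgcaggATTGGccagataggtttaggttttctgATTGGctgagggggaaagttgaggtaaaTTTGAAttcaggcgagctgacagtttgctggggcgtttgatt
Cdc6: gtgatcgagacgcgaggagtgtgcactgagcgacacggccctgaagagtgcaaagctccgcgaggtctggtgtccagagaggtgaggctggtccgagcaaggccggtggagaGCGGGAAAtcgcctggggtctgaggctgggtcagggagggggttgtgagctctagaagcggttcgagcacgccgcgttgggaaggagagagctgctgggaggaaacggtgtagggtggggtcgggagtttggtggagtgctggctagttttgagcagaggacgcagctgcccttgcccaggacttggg

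Of the 50 cell cycle genes that rose, 40 matched the promoter table, with 46 promoters. CCAAT was found on either strand in 32 of these (69.6%) and in 37.4% of all 32851 promoters of the same length. TTTGAA was found in 23 (50%) and in 17.9% of all, and GCGGGAAA in 2 (4.35%) and in 1.07%. The boxes do not overlap one another in letters, and these matches describe the sequence only.

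Aerocyte genes fell together. Of 12 tested list members 10 fell and none rose, with a median log2 fold change of -0.997. The groups did not overlap in 10 of the 12, beside 43.9% of all genes tested. Car4 (chr11:84957786-84966044 on GRCm38, in the GENCODE annotation), a carbonic anhydrase on the surface of alveolar capillaries, was at 2287, 2534 and 2889.8 CPM in PBS-treated mice 1 to 3 and 1457, 1219.6 and 1157 in LPS-treated mice 1 to 3 (-1.12 ± 0.12 on the log2 scale, adjusted p = 0.000454). The highest LPS-treated mouse lay well below the lowest PBS-treated mouse. In such sums, fewer cells of a type and less RNA per cell cannot be told apart.

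Emp2, a membrane protein of thin alveolar cells, fell from 1461, 1309 and 1386 to 739, 779.6 and 589 CPM (-1.09 ± 0.12, adjusted p = 0.000398). Tbx2, a T-box transcription factor, fell from 305, 339.6 and 327 to 161, 162 and 140.2 CPM (-1.18 ± 0.09, adjusted p = 0.000114), and the sulfotransferase gene Chst1 from 82.4, 91.3 and 110.3 to 56.03, 55.2 and 52.8 CPM (-0.90 ± 0.11, adjusted p = 0.000656). The mice within a group were close in Tbx2 and Chst1. Leaving out any 1 mouse left 8 to 10 of the 12 called, all lower.

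Other capillary and vessel genes moved less evenly. Of 11 general capillary genes 4 fell and none rose, with a median of -0.11, beside 11.3% called lower over all genes tested. Lpl, the lipase that frees fatty acids at the capillary wall, fell from 301, 250.5 and 205 to 136, 81.1 and 125 CPM (-1.26 ± 0.23, adjusted p = 0.0116, and 0.0541 without LPS-treated mouse 3). Gpihbp1, which anchors that lipase, fell from 1831, 1855 and 1745 to 1482, 1644 and 1371 CPM (-0.39 ± 0.10, adjusted p = 0.0209), and its adjusted p was 0.0885, 0.0516 and 0.0541 without PBS-treated mouse 2 or 3 or LPS-treated mouse 1. The number of general capillary genes called lower was 1 without PBS-treated mouse 3 or LPS-treated mouse 3, 2 without PBS-treated mouse 2 or LPS-treated mouse 1 and 3 without either of the others.

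Of 11 arterial genes 6 rose and 1 fell, with a median of 0.38, beside 11.6% called higher and 11.3% lower over all genes tested. Gja5, the connexin of arterial endothelium, rose from 9.94, 7.74 and 12.1 to 29.7, 34.6 and 54.6 CPM (1.88 ± 0.25, adjusted p = 0.00204), and Fbln5, an elastic fibre protein, from 8.96, 10.5 and 9.91 to 24.8, 34.6 and 49.04 CPM (1.77 ± 0.24, adjusted p = 0.00159). Of 9 venous genes only 2 rose and 1 fell, beside those same shares over all genes tested. Nr2f2, the transcription factor of venous identity, rose from 6.68, 6.15 and 6.14 to 17.8, 18.4 and 29.7 CPM (1.67 ± 0.23, adjusted p = 0.00112). Of 8 lymphatic genes 3 rose, Pdpn, Reln and Mmrn1. Mmrn1 was at 1.79, 0.595 and 2.38 CPM after PBS and 12.1, 12.7 and 49.3 after LPS (3.81 ± 0.84, adjusted p = 0.0291, and 0.1003, 0.0976 and 0.0954 without PBS-treated mouse 1, 2 or 3). LPS-treated mouse 3, with the largest share of cells with Prox1, Mmrn1 and Ccl21a, was again the highest, and 1 of the 8 was called without any 1 PBS-treated mouse. The summed level of the 9 lymphatic genes was not higher after LPS, at 894, 876 and 606 CPM after PBS and 493, 787 and 764 after LPS.

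**Figure D3:**
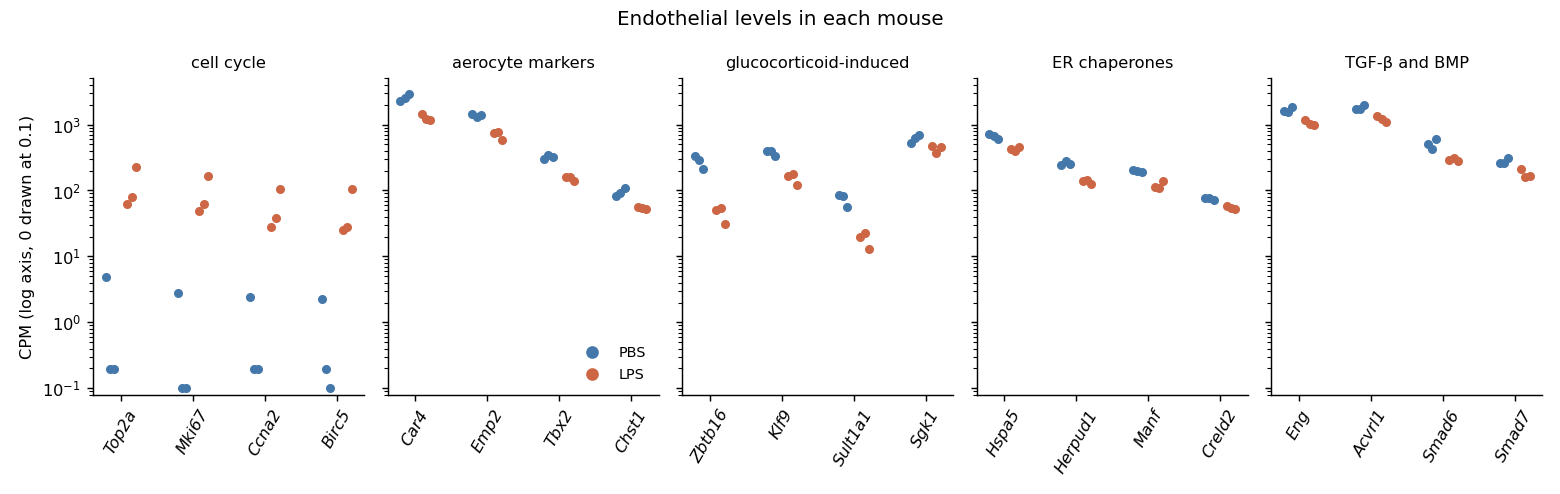
Levels of named endothelial genes in each β1AT2-KO mouse (CPM of the endothelial sum, log axis, with 0 drawn at 0.1, dots are mice given PBS or LPS). Cell cycle genes are higher in all LPS-treated mice, and the aerocyte, glucocorticoid-induced, chaperone and TGF-β and BMP genes shown are lower in all of them.

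Genes that glucocorticoids induce were prominent among the falls. Of 12 tested list members 6 fell and 1 rose, with a median log2 fold change of -0.74. Zbtb16 (chr9:48654297-48836222), a zinc finger repressor strongly induced by these steroids, was at 335, 288 and 215 CPM in PBS-treated mice 1 to 3 and 50.6, 53.9 and 31.02 in LPS-treated mice 1 to 3, a fall of 6.67-fold (-2.74 ± 0.26 on the log2 scale, adjusted p = 0.00153). The sulfotransferase Sult1a1 fell from 85.4, 81.6 and 55.9 to 19.4, 23.04 and 12.99 CPM (-2.12 ± 0.24, adjusted p = 0.001604). Both genes were among the leading falls, which were named only where the mice of the groups did not overlap.

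The transcription factor Klf9 fell from 400.3, 398 and 329.9 to 166, 178 and 122 CPM (-1.39 ± 0.15, adjusted p = 0.000659), and the kinase Sgk1 from 533, 633 and 683 to 477, 369.7 and 457 CPM (-0.62 ± 0.12, adjusted p = 0.00644). Cdkn1a, which encodes the cell cycle inhibitor p21, fell from 915, 812 and 476 to 229, 166 and 273 CPM (-1.84 ± 0.31, adjusted p = 0.0126). The member that rose was the metallothionein Mt2, from 3.095, 1.59 and 0.396 to 11.1, 10.3 and 7.42 CPM (2.33 ± 0.48, adjusted p = 0.009298), a gene that was over 20 times higher in epithelial or immune cells of the LPS library and, separately, in its mesenchymal cells. With any 1 mouse left out 6 or 7 of the list were called lower. Fkbp5 and Per1, further targets chosen after their values were seen, did not pass the test (adjusted p = 0.296 and 0.243).

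The other leading falls were Ip6k3, an inositol phosphate kinase, Rasa4, a Ras inhibitor, Ttc39c, Nkd2, an inhibitor of Wnt signalling, A4galt, a glycosphingolipid synthase, and the kinase Map3k6. Ip6k3 fell from 17.8, 29.6 and 20.6 to 3.61, 5.39 and 5.302 CPM (-2.35 ± 0.26, adjusted p = 0.000424) and A4galt from 69.9, 99.2 and 91.3 to 28.1, 27.9 and 22.3 CPM (-1.84 ± 0.15, adjusted p = 0.000214). Rasa4 lost its call without LPS-treated mouse 2 or 3 (adjusted p = 0.0609 and 0.0908). The immunoglobulin segment Igkv9-120 stood apart from these. It was at 16.5, 21.6 and 24.2 CPM after PBS and at 0 in all 3 LPS-treated mice and all 3 LPS-treated β1fl/fl mice, and was at least 81.1-fold lower after LPS, taking 3 counts over the group as the floor. UMIs of it were in 348 of 7973 endothelial cells after PBS (4.36%, exact 95% binomial interval 3.93 to 4.84%), in 1 of 103 mesenchymal cells after PBS (0.971%) and in 0 of 5027 endothelial cells after LPS, which allows a share of up to 0.0597% by a floor of 3 counts and 0.0734% by the exact limit, at median depths of 2206, 3044 and 2440 UMIs per cell. Segments of this family share sequence, so the assignment of its reads is uncertain.

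Chaperones of the endoplasmic reticulum, where secreted proteins fold, fell. Of 18 tested list members 10 fell and none rose, with a median of -0.33. Hspa5, the central chaperone BiP, was at 726, 673 and 612 CPM after PBS and 421, 398 and 454 after LPS (-0.77 ± 0.10, adjusted p = 0.000692). Herpud1, of the degradation machinery for misfolded proteins, fell from 241, 280.2 and 254 to 140.2, 145 and 127 CPM (-1.02 ± 0.09, adjusted p = 0.000214), and Manf, a secreted stress protein, from 201, 197 and 193 to 114, 110.1 and 138 CPM (-0.82 ± 0.09, adjusted p = 0.000523). In each of these the lowest PBS-treated mouse lay above the highest LPS-treated mouse. Of 15 heat shock genes 3 fell and none rose, beside 11.3% called lower over all genes tested. Among the 3 was the constitutive chaperone gene Hspa8, from 3322, 2455 and 2099 to 1542, 1506 and 1354 CPM. The number of heat shock genes that fell was 5 without PBS-treated mouse 3, 4 without LPS-treated mouse 1 and 2 without PBS-treated mouse 2 or LPS-treated mouse 2 or 3.

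Immediate early genes split. Of 23 tested genes of the AP-1 family and its companions, which answer a stimulus within minutes and also the stress of dissociation, 10 fell and 6 rose, with a median of -0.46. Junb fell from 1975, 2288 and 2018 to 1043, 1370.3 and 989.6 CPM (-0.998 ± 0.14, adjusted p = 0.00113) and Jund from 2096, 2026 and 2087 to 1237, 1441 and 1062 CPM (-0.84 ± 0.12, adjusted p = 0.00129), whereas Cyr61, a target of the YAP pathway, rose from 109, 129 and 122 to 195, 196 and 204 CPM (0.61 ± 0.09, adjusted p = 0.001298) and Klf6 by 0.63 on the log2 scale. Of 21 p53 targets and senescence genes 9 fell and 2 rose, with a median of -0.43. Besides Cdkn1a these included Cdkn2b, which encodes an inhibitor of the G1 kinases, from 38.9, 34.5 and 45.2 to 21.9, 26.2 and 17.8 CPM (-0.95 ± 0.15, adjusted p = 0.00242). Plk2 and Trp53 were the members that rose, by 0.85 and 0.46.

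Several receptors and inhibitors of BMP signalling, a pathway that keeps endothelium quiescent, fell. Of 31 tested TGF-β and BMP genes 9 fell and 5 rose, with a median of 0.09. The receptor Acvrl1 fell from 1725, 1731 and 1999 to 1341, 1231 and 1088 CPM (-0.69 ± 0.11, adjusted p = 0.00223) and its coreceptor Eng from 1623, 1545 and 1853 to 1159.8, 1015 and 970.5 CPM (-0.79 ± 0.11, adjusted p = 0.001104). The inhibitory Smad6, itself a target of the pathway, fell from 514, 429.7 and 594 to 286, 307 and 277 CPM (-0.93 ± 0.11, adjusted p = 0.000619) and Smad7 fell by 0.76 on the log2 scale. No mouse overlapped between the groups in these 4 genes, as in 43.9% of all genes tested. With any 1 mouse left out 7 to 9 of the list were called lower. The number called higher was 2 without PBS-treated mouse 3, 3 without PBS-treated mouse 2 or any 1 LPS-treated mouse, and 11 with no filter on low counts.

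Of 20 junction and barrier genes 7 fell and 2 rose, with a median of -0.25. The 10 endothelial check markers, which include Esam and Eng, also fell, 6 of them lower and none higher, with a median of -0.355. The anticoagulant receptor Thbd fell from 2004, 2031 and 2102 to 1439.7, 1370.1 and 1014 CPM (-0.79 ± 0.13, adjusted p = 0.00281), the sphingosine phosphate receptor S1pr1, which tightens the barrier, from 1526, 1721 and 1482 to 1174, 1071 and 1039 CPM (-0.64 ± 0.10, adjusted p = 0.00232), and the adhesion molecule Esam from 1409, 1335 and 1346 to 1054, 951 and 905 CPM (-0.60 ± 0.09, adjusted p = 0.00207). The nitric oxide synthase Nos3 rose by 0.44 on the log2 scale (adjusted p = 0.0153). The number called lower was 3 without PBS-treated mouse 3, 4 without LPS-treated mouse 2 and 5 without any 1 of the others.

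Growth factors of the vessel wall and the alveolar niche were called in both directions. Of 23 genes of the VEGF, angiopoietin and apelin systems 3 rose and 2 fell, shares close to the 11.6 and 11.3% over all genes tested, with a median of -0.04. Without PBS-treated mouse 1 or 3 or LPS-treated mouse 2 or 3, 1 fell. The lymphatic growth factor genes Vegfc and Vegfd rose, Vegfc from 44.1, 51.2 and 39.03 to 65.8, 76.97 and 71.04 CPM (0.56 ± 0.12, adjusted p = 0.00896) and Vegfd from 0.652, 0.198 and 0.198 to 3.36, 3.19 and 5.302 CPM (3.22 ± 0.55, adjusted p = 0.00329). Vegfd was over 20 times higher in the mesenchymal cells of the LPS library than in its endothelial cells. Of 14 niche ligands 5 rose and 3 fell. Hgf, a growth factor for epithelium, was at 12.2, 16.5 and 22.6 CPM after PBS and 42.3, 32.1 and 30.5 after LPS (0.93 ± 0.22, adjusted p = 0.0182, and 0.0656 and 0.0551 without PBS-treated mouse 2 or LPS-treated mouse 1). Porcn, which equips Wnt ligands for secretion, fell from 17.4, 22.6 and 18.4 to 14.2, 12.5 and 10.3 CPM (-0.77 ± 0.18, adjusted p = 0.0135, and 0.0609 without PBS-treated mouse 2). With the AT2 profile subtracted 3 of the niche ligands rose and 2 fell, and without any 1 mouse of the 6 the list had 2 to 4 higher and 1 to 3 lower.

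Most interferon and antigen presentation genes did not pass the test in endothelial cells, and those that did were lower. Of 45 interferon-stimulated genes 9 fell and none rose, with a median of -0.36. Irf1, a transcription factor of the interferon response, fell from 1075, 1029 and 849 to 493, 616 and 463 CPM (-1.02 ± 0.13, adjusted p = 0.00102), and Tgtp2, a GTPase of antimicrobial defence, fell by 1.07 on the log2 scale. Of 17 genes of MHC class I presentation 3 fell and none rose, and of 9 class II genes none passed the test, beside 11.3% called lower over all genes tested. For class II the median was -0.81, and the PBS-treated mice were far apart, Cd74 being at 549, 8582 and 4168 CPM in them and 3195, 1081 and 3089 in the LPS-treated mice.

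Of 18 NF-κB feedback genes 2 rose, Rel and Tnfaip3, and 2 fell, Rela and Nfkbiz. The median of that list was 0.03, both shares lay close to those over all genes tested, and without any 1 mouse 1 to 3 rose and 1 to 3 fell. Of 12 leukocyte adhesion genes 3 fell and 1 rose, beside 11.3% called lower and 11.6% higher over all genes tested. The rise was not called without PBS-treated mouse 1 or 3 or LPS-treated mouse 3. Icam1, which binds neutrophils, fell from 317, 509 and 486 to 242, 265 and 276 CPM (-0.86 ± 0.17, adjusted p = 0.0114, and 0.0516 without LPS-treated mouse 3), and the endothelial adhesion gene Icam2 fell by 0.64 on the log2 scale. Of 11 chemokines and cytokines 5 rose and 3 fell. The chemokine scavenger Ackr3 rose from 134, 109 and 93.7 to 210.4, 228 and 312 CPM (1.04 ± 0.18, adjusted p = 0.007999), and the alarmin Il33 rose from 2.77, 2.58 and 1.39 to 13.4, 21.3 and 12.2 CPM (2.66 ± 0.33, adjusted p = 0.000669), a gene over 20 times higher in epithelial or immune cells of the LPS library. Of the chemokine list 1 member fell without PBS-treated mouse 1 or 3 or LPS-treated mouse 1 or 3.

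The acute phase list and the matrix lists rose in endothelial sums together with markers of other cells. Of 19 acute phase and complement genes 14 rose and none fell, with a median of 2.09. However, 6 of the 14 were over 20 times higher in epithelial or immune cells of the LPS library and 10 over 20 times higher in its mesenchymal cells, and 2 were neither. With the AT2 profile subtracted 12 rose, and Lcn2, a neutrophil and epithelial defence protein that went from 6.52, 2.98 and 6.14 to 52.7, 71.6 and 68.1 CPM, no longer passed the test.

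Of 32 fibrillar collagen and provisional matrix genes 18 rose and 2 fell, with a median of 1.27. Of the 18, 15 were over 20 times higher in mesenchymal cells, 8 over 20 times higher in epithelial or immune cells, and 3 were neither. Without PBS-treated mouse 2 the number that rose was 11, and without PBS-treated mouse 3 it was 12. With the AT2 profile subtracted it was 19, a step that leaves RNA of mesenchymal cells in the sums. Col3a1 was at 21.02, 20.04 and 13.3 CPM after PBS and 94.5, 95.9 and 162 after LPS (2.57 ± 0.29, adjusted p = 0.00269), beside 5172 and 11109.8 CPM in all mesenchymal cells of the libraries. The prolyl hydroxylase gene P4ha2, needed to fold collagen, fell from 66.1, 72.6 and 58.6 to 37.7, 28.4 and 40.8 CPM (-1.001 ± 0.14, adjusted p = 0.00136).

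Of 27 basement membrane genes 14 rose and 2 fell, with a median of 0.80, and 8 of the 14 were over 20 times higher in neither of the other cell groups. Among these 8 were Col4a1 and Col4a2, chosen after their values were seen, which encode the collagen chains of the vessel's own basement membrane. Col4a1 rose from 1191, 739 and 745 to 1889.7, 1307 and 1956 CPM (0.83 ± 0.24, adjusted p = 0.0468) and Col4a2 from 469, 285 and 273 to 747, 545 and 785 CPM (0.90 ± 0.25, adjusted p = 0.0477). Lamc3, a laminin chain, fell by 1.31 and the laminin receptor subunit gene Itga3 fell by 0.43 on the log2 scale. With any 1 mouse left out 8 to 15 of the list rose, 8 of them without PBS-treated mouse 3 and 9 without PBS-treated mouse 2, and with the AT2 profile subtracted 12 of 26 rose. Col4a1 and Col4a2 each lost their call without PBS-treated mouse 2 or 3 or LPS-treated mouse 1 or 3, with adjusted p of 0.123 to 0.190 and 0.112 to 0.184, and with no filter on low counts (0.139 and 0.142). The adjusted p was 0.0501 for Col4a1 with doublets removed and 0.0512 for Col4a2 with the gate applied after thinning.

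Housekeeping lists had small changes and few called genes. Of 51 ribosomal protein genes 2 rose, with a median of 0.19, and of 63 oxidative phosphorylation genes 1 rose and 2 fell, with a median of 0.01. However, 44 of the ribosomal protein genes were higher in every LPS-treated mouse than in any PBS-treated mouse and 0 lower. For oxidative phosphorylation these counts were 30 and 1, and 43.9% of all genes tested did not overlap in either direction. Neither list had a called gene without PBS-treated mouse 2 or 3 or LPS-treated mouse 2, and 7 ribosomal protein genes rose without PBS-treated mouse 1 or LPS-treated mouse 1. Of 21 hypoxia and glycolysis genes 1 rose and 3 fell (1 without PBS-treated mouse 2 or 3 or LPS-treated mouse 2 or 3), beside 11.6 and 11.3% over all genes tested. The rise was Hif1a, by 0.85 on the log2 scale. Of 17 clock genes 1 rose, the repressor Bhlhe40, from 44.3, 48.2 and 43.98 to 107, 169 and 187 CPM (1.65 ± 0.20, adjusted p = 0.00233).

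**Figure D4:**
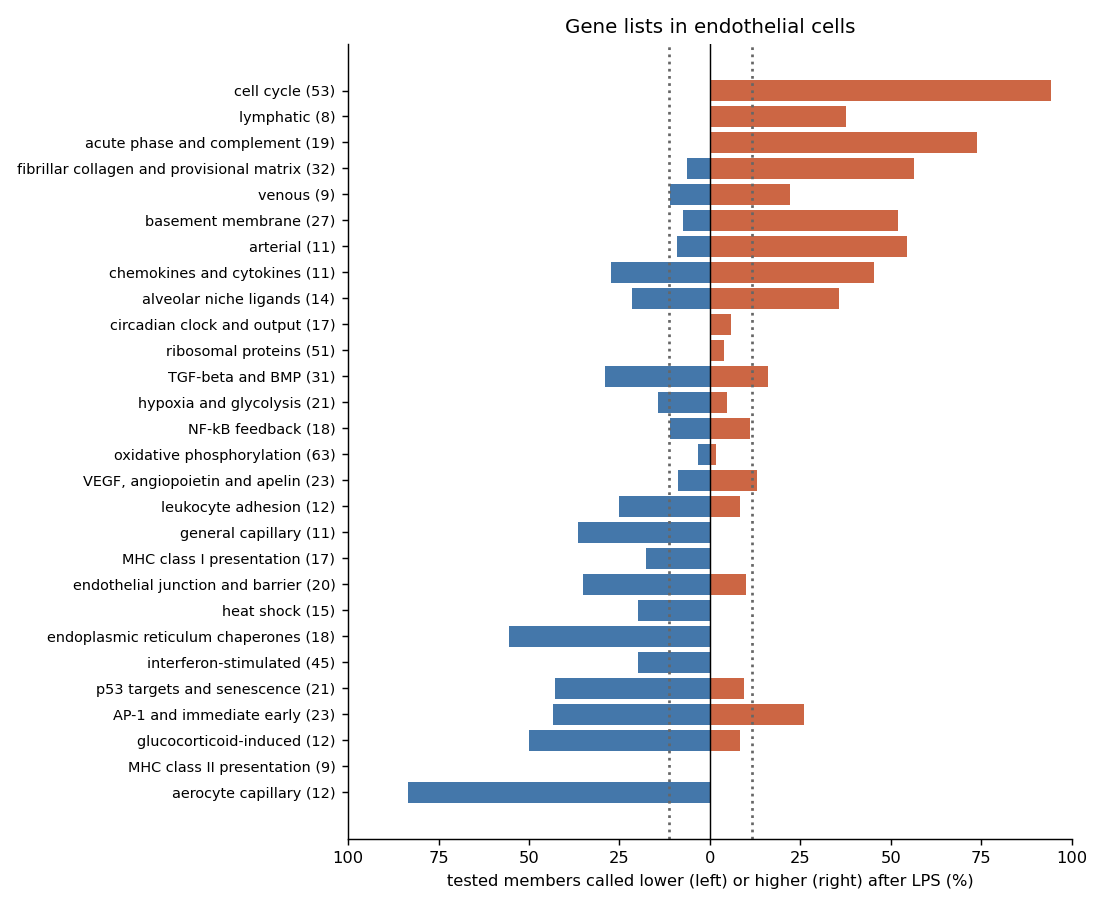
Share of the tested members of each pathway and endothelial subtype list that rose (right) or fell (left) after LPS in endothelial cells (% of tested members, number tested in parentheses, edgeR adjusted p under 0.05). Dotted lines mark the shares over all genes tested, 11.6% higher and 11.3% lower, and of the lists drawn, which leave out the markers of other cell types, the cell cycle and aerocyte lists lie farthest beyond them.

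Mesenchymal cells were first described over all cells of each library, with or without a hashtag, since 91 of the 103 PBS cells could not be assigned to a mouse. This gives 1 value per treatment, with no test, and exact 95% Poisson intervals that cover counting error only. These intervals take every UMI as independent, so they are too narrow where a few cells hold many UMIs of a gene. The PBS sum held 342617 UMIs, so that 3 counts equal 8.76 CPM, and the LPS sum 2956406. Of 11785 genes with at least 10 UMIs, 454 were higher after LPS with intervals that did not meet (3.85%), 669 were lower (5.68%), and the median log2 ratio was -0.14. Intervals of abundant genes separate at smaller differences, so these shares are not a like baseline for lists of abundant genes.

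Matrix genes were higher after LPS. Of 36 fibrillar collagen and provisional matrix genes 30 were higher and none lower, with a median log2 ratio of 0.84. Fn1, which encodes the fibronectin of provisional matrix, was at 196 CPM (95% interval 152 to 248) after PBS and 2666 CPM (2608 to 2726) after LPS, a ratio of 13.6 (10.7 to 17.6). Fn1 UMIs were in 24 of 103 cells after PBS (23.3%, exact 95% binomial interval 15.54 to 32.7%) and 387 of 552 after LPS (70.1%, 66.1 to 73.9%), at median depths of 3044 and 4055 UMIs. In endothelial cells, at 2206 and 2440 UMIs, they were in 0.401 and 6.74%. Tnc, the tenascin of healing tissue, was 10.6 times higher, at 46.7 and 494 CPM. Col1a1 was at 2998 CPM (95% interval 2817 to 3187) and 10319 CPM (10204 to 10436), and the minor fibril collagen Col5a3 at 17.5 and 149 CPM. Col1a2 also was higher, but it chose the cells.

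Cthrc1 (chr15:39076932-39087121), a secreted protein that marks matrix-producing fibroblasts in injured lung, had no UMI in the 103 PBS cells and 444 UMIs in 47 of the 552 LPS cells, 150.2 CPM (137 to 165), at least 17.2-fold higher by a floor of 3 counts. One cell held 66 of these UMIs. The count of 0 allows up to 2.91% of the PBS cells by a floor of 3 counts and 3.52% by the exact 95% binomial limit, beside 8.51% of the LPS cells (exact 95% binomial interval 6.32 to 11.2%), and endothelial cells had Cthrc1 UMIs in 2.96% after PBS and 4.26% after LPS, at the depths just given. The BMP antagonist Grem1 was at least 14.9-fold higher, with UMIs in 51 LPS cells, the acute phase protein Saa3 at least 16.3-fold, in 39 cells, and Thbs4 at least 11.6-fold, in 20 cells. Ptgs2, the inducible prostaglandin synthase, had 2 UMIs after PBS and 142 CPM after LPS, a ratio of 24.3 (6.68 to 201), Cilp 3 UMIs and 196 CPM, a ratio of 22.3 (7.60 to 109), and the transcription factor Runx1 17.5 and 108 CPM.

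The leading falls included 2 steroid-induced genes and the myofibroblast gene Hhip. Klf15 was at 140.1 CPM (95% interval 103 to 186) after PBS and 21.3 CPM (16.4 to 27.3) after LPS, and Zbtb16 at 292 CPM (95% interval 237 to 355) and 47.4 CPM (39.8 to 55.9). Of the 13 glucocorticoid-induced genes 7 were lower and 3 higher, with a median log2 ratio of -1.09, among them Tsc22d3, which encodes the steroid-induced leucine zipper protein GILZ, at 1004 CPM (95% interval 901 to 1116) and 248 CPM (231 to 267). In endothelial cells Tsc22d3, named here after its values were seen, fell from 658, 555 and 392 to 292, 289 and 216 CPM (-1.12 ± 0.21, adjusted p = 0.0124). Zbtb16 UMIs were in 55.3% of mesenchymal cells after PBS (exact 95% binomial interval 45.2 to 65.1%) and 19.7% after LPS (16.5 to 23.3%).

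Hhip, the hedgehog inhibitor of alveolar myofibroblasts, was at 1667 CPM (95% interval 1533 to 1809) and 302 CPM (283 to 323), with UMIs in 46 of 103 and 122 of 552 cells. The xenobiotic enzyme Cyp2e1 was at 473 and 49.7 CPM, Ccdc3 at 131 and 14.5, and the endothelin receptor Ednrb at 108 and 15.6. Fam105a and Fam180a were 6.11 and 5.80 times lower. Krt19, also among the leading falls, had 73 of its 74 PBS UMIs in 1 cell. Of 12 pericyte genes 7 were lower and none higher, and of 14 smooth muscle and myofibroblast genes 7 were lower and 1 higher. In contrast, 9 of 17 adventitial fibroblast genes were higher and 2 lower. Of 14 alveolar fibroblast genes 5 were higher and 1 lower, with a median log2 ratio of 0.29.

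The exact test over 3 mice against 3 cannot give a p under 0.1, so no share of a mesenchymal subset could pass it, and the values over mice and over whole libraries did not always run the same way. After thinning, cells with at least 2 UMIs of Pi16, Col14a1, Clec3b and Ly6a were 34.3% of 102 mesenchymal cells after PBS (exact 95% binomial interval 25.2 to 44.4%) and 53.9% of 551 after LPS (49.6 to 58.1%), intervals that cover counting error only and compare these libraries. Over the cells with a hashtag they were 14.3, 50 and 0% in PBS-treated mice 1 to 3 and 57.5, 57.9 and 45.3% in LPS-treated mice 1 to 3, so the groups overlapped (exact permutation p = 0.2, adjusted 0.286). Cells with the alveolar fibroblast genes Npnt, Tcf21, Inmt and Ces1d were 30.4% (21.7 to 40.3%) of the PBS library and 35.8% (31.7 to 39.9%) of the LPS library. Over mice they ran the other way, at 42.9, 50 and 33.3% after PBS and 25, 32.9 and 26.4% after LPS, without overlap (exact permutation p = 0.1, adjusted 0.2). Cells with Acta2, Myh11, Tagln and Actg2 were 33.3% (24.3 to 43.4%) and 27.6% (23.9 to 31.5%) of the libraries, with intervals that met. Over mice they were 42.9, 0 and 0% and 15, 25 and 31.4% (exact permutation p = 0.6, adjusted 0.75). Cells with the mesothelial genes Msln, Wt1 and Upk3b were 0.980 and 2.00% of the libraries. Over mice they were at 0 in the 12 PBS cells and at 7.50, 3.95 and 1.26% after LPS (exact permutation p = 0.1, adjusted 0.2).

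Stress and housekeeping genes of the mesenchyme also differed. Of 25 AP-1 and immediate early genes 15 were lower and 6 higher, Egr1 being at 6328 CPM (95% interval 6064 to 6599.9) and 2579 CPM (2522 to 2638) and Junb at 6112 CPM (95% interval 5853 to 6379) and 3419 CPM (3352 to 3486). Of 18 endoplasmic reticulum chaperones 7 were lower and none higher. Of 19 acute phase and complement genes 15 were higher and 1 lower, of 30 basement membrane genes 13 were higher and 1 lower, and of 51 ribosomal protein genes 13 were higher and none lower. Of 43 cell cycle genes 1 was higher and 1 lower and the intervals of 41 met, with a median log2 ratio of 1.41, or 0 with genes at the floor of 3 counts set to their bound. At 8.76 CPM for 3 counts after PBS, a difference in most of them was not detectable at this depth. AT2 markers were again higher after LPS, in 6 of 13 genes, and 6 of 10 endothelial check genes were lower.

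**Figure D5:**
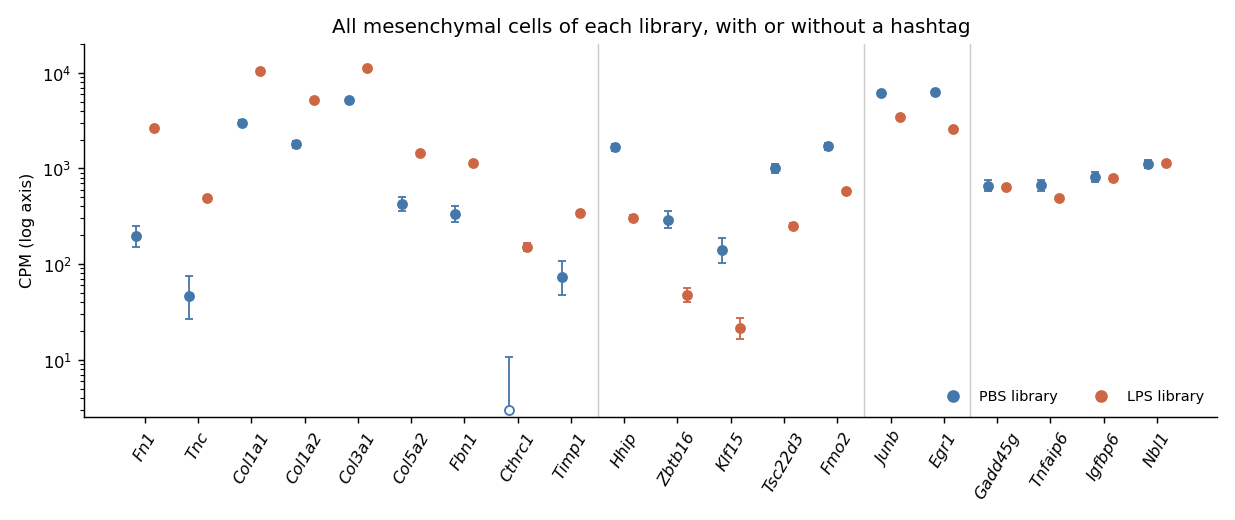
Levels of named genes in all mesenchymal cells of the PBS and LPS libraries (CPM, log axis, bars are exact 95% Poisson intervals, which cover counting error only, and Cthrc1 after PBS, at 0, is drawn open at 3). Matrix genes lie higher after LPS, Hhip, Zbtb16, Klf15, Tsc22d3 and Fmo2 lower, and the intervals of Gadd45g, Igfbp6 and Nbl1 meet.

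The edgeR test over mice, which used only the cells with a hashtag, called 23 mesenchymal genes. Of 2468 genes tested 14 rose (0.567%) and 9 fell (0.365%), and 411 had an unadjusted p under 0.05. Fn1 was at 43.3, 0 and 0 CPM in PBS-treated mice 1 to 3 and 2043, 1038 and 3579.8 in LPS-treated mice 1 to 3 (6.86 ± 1.00 on the log2 scale, adjusted p = 0.0114). Fbn1, which encodes fibrillin, was at 260.1, 323 and 183 and 725, 928 and 1154 CPM (2.31 ± 0.51, adjusted p = 0.0463). A PBS value of 0 rests on as few as 2 cells. The number called was 0 without LPS-treated mouse 1 or 3, 1 without LPS-treated mouse 2, and 75, 98 and 54 without PBS-treated mouse 1, 2 or 3.

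Of the 14 genes that rose, 9 were also higher in all cells of the library with intervals that did not meet. All cells include those with a hashtag, so the 2 results are not independent. Among the 9 were Fn1, Fbn1, Col6a3, Ctsk, a collagen-cleaving protease, and Has1, a hyaluronan synthase. Gadd45g, Igfbp6, Nbl1 and Rpl22 had intervals that met in all cells, and Tnfaip6 was lower, at 489.8 CPM after LPS against 671 after PBS. Gadd45g, Fndc1 and Has1 were at 0 in all 3 PBS-treated mice, and were at least 9.47, 4.20 and 4.13-fold higher by a floor of 3 counts over the group. Those bounds rest on the 12 PBS cells with a hashtag. In all cells Gadd45g was at 659.6 CPM after PBS and 636 after LPS, Fndc1 at 193 and 318, and Has1 at 140.1 and 242, log2 ratios of -0.06, 0.71 and 0.77. Of the 9 that fell 6 were lower in all cells too, among them Cryab, a small heat shock protein, from 780.2, 2586 and 639 to 216, 229.9 and 131 CPM in the mice (-2.12 ± 0.46, adjusted p = 0.0463), and Hsd11b1, the enzyme that regenerates active glucocorticoid, from 1127, 808 and 2191 to 293, 310.2 and 223 CPM (-1.91 ± 0.41, adjusted p = 0.0453).

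Whether the response to LPS differed between compartments was tested in a single edgeR model with mouse as a block. The difference of the LPS effects, mesenchymal minus endothelial, passed the test for 364 of 11764 genes (3.09%), positive in 332 and negative in 32, and 1891 had an unadjusted p under 0.05. The median over all genes was itself 1.31 on the log2 scale, and 4.92 without PBS-treated mouse 1, and the PBS mesenchymal sums held 6186 to 23072 UMIs. Of the 10 genes with the smallest p, 9 were positive, and immediate early genes (Junb, Fosb, Jun, Egr1 and others) led them. In all mesenchymal cells of the libraries, however, 5 of these 9 were lower after LPS, Dusp1 and Hspa1b were higher, and the intervals of Nbl1 and Gadd45g met. The number called was 91 without LPS-treated mouse 2, 131 without LPS-treated mouse 3, 154 without LPS-treated mouse 1 and 142 without PBS-treated mouse 3.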

How the data were processed

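Sorted lung cells of hashtagged β1AT2-KO mice, with 3 hashtags in use per treatment, were sequenced as 1 5′ droplet library each. The authors deposited raw UMI counts for each cell barcode, over genes and hashtag antibodies, made with Cell Ranger 3.1 on mm10 per the submitters' processing notes, which also name Seurat 4.1.0. The deposited barcode and feature lists (other, not measurements) name the rows and columns. The background RNA correction, cell filters and doublet removal described in the study's methods are not part of these counts. After the cell filters Gm42418 was removed, as in the study. A barcode was given to a mouse when exactly 1 hashtag in use exceeded 4 times its background. The members and gene lists were chosen with earlier results of these data known.

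UMI counts were summed per mouse and compartment and tested with edgeR 4.0.16 quasi-likelihood (TMM, filterByExpr, R 4.3.3, Benjamini-Hochberg adjustment, two-sided, 0.05). Named genes were the 10 largest rises and falls among called genes with a mean of at least 20 CPM in 1 treatment and no overlap between mice, and up to 4 called members per list with the smallest p. Of the endothelial genes that passed level and overlap, 36 were left out for a level over 20 times higher in epithelial or immune cells. Genes of whole mesenchymal libraries were named, by a rule chosen after seeing the data, among those of at least 100 CPM with separate intervals. Shares were tested by exact permutation (scipy 1.17.1). Alternatives were DESeq2 1.42.0 size factors and Wald test, no filter on low counts, sex as a term, doublets removed (Scrublet in scanpy 1.11.5), another hashtag rule, gating after thinning, subtraction of the AT2 profile, leaving out each mouse and, added after seeing the data, all cells with or without a hashtag. The test was checked on simulated counts, where it recovered most of the changed genes at the depth of the endothelial sums but few at that of the mesenchymal sums, with more false than true calls there. Gene positions are from GENCODE on GRCm38, which matched 31010 of 31052 genes, and promoters from RefSeq. One gene that the naming rule chose is not reported here.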

Additional observations from a re-analysis of the deposited data

Results flagged for a closer look

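The 10 genes below were singled out because their response to LPS differed between mesenchymal and endothelial cells in the edgeR model with mouse as a block. Each value is the mesenchymal minus the endothelial log2 fold change over the cells with a hashtag, against a median of 1.31 over all 11764 genes, which was 4.92 without PBS-treated mouse 1, and the mesenchymal side rests on 12 PBS cells.

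The difference was 3.71 for Junb, 4.11 for Fosb, 3.72 for Jun and 3.43 for Egr1, immediate early transcription factors, with adjusted p from 3.84e-09 to 1.17e-08. It was 3.77 for the phosphatase gene Dusp1, 3.93 for the cytokine signalling inhibitor Socs3 and 5.75 for the heat shock gene Hspa1b, with adjusted p of 1.17e-08 for both Dusp1 and Socs3 and 1.61e-08 for Hspa1b. Endothelial Junb was at 1975, 2288 and 2018 CPM after PBS and 1043, 1370 and 990 after LPS, and mesenchymal Junb at 3424, 1132 and 91.3 and at 4515, 4057 and 3630 CPM. The PBS mice thus ranged widely in the mesenchyme. Over all mesenchymal cells of the libraries Junb was at 6112 CPM after PBS and 3419 after LPS, and Egr1 at 6328 and 2579, so the direction of both depended on which cells were counted. Fosb, Jun and Socs3 were also lower there, whereas Dusp1, at 1232 and 1578 CPM, and Hspa1b, at 187 and 259, were higher.

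The difference was 4.28 for the BMP antagonist gene Nbl1 (adjusted p = 6.37e-12). For the stress gene Gadd45g it was 13.93 (adjusted p = 5.03e-10), a size that depends on the prior count because the gene was at 0 in all 3 PBS mesenchymal sums. Over all mesenchymal cells Nbl1 was at 1118 CPM after PBS and 1141 after LPS, and Gadd45g at 660 and 636. The difference was -5.84 for Vwa1, a matrix protein gene (adjusted p = 3.84e-09), and its adjusted p was 0.0596 without PBS-treated mouse 1. Vwa1 rose in endothelial cells, from 2.61, 2.18 and 1.98 to 9.81, 7.35 and 13.5 CPM, and over all mesenchymal cells it was at 87.6 CPM after PBS and 19.3 after LPS.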

How the results depend on the processing

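No paired analysis was possible because hashtag numbers name different mice in each treatment and pair none of them. The mesenchymal share ratio of 30.6 was 9.95 with the other hashtag rule, 6.42 over all cells, and 18.3 to 46.2 with 1 mouse left out. Without thinning, the differences were 2.42 points for Gpihbp1 and Plvap cells (-4.78 when thinned), 3.16 for Vwf and Slc6a2 cells (0.518) and 9.38 for mesenchymal cells with Npnt, Tcf21, Inmt and Ces1d (-13.96). The count of endothelial genes called, 2581, was 1495 to 2576 with 1 mouse left out, and 2000 to 3006 under the other alternatives. The mesenchymal count of 23 was 289 with no filter, 172 with the DESeq2 Wald test, 15 with sex as a term, 63 with doublets removed, 3 with the other hashtag rule, 52 with the gate applied after thinning, and 0 to 98 with 1 mouse left out. The count of genes that differed between compartments, 364, was 91 to 373 with 1 mouse left out, 496 with DESeq2 size factors, which shifted the median of all genes by 0.132 on the log2 scale, and 285 with no filter. Mesenchymal log2 fold changes turned to -0.0386 for Fndc1 with the gate applied after thinning, and to -0.0556 for Gadd45g, -0.0213 for Igfbp6 and -0.457 for Tnfaip6 over all cells. The cause of these changes was not tested. Of 145 named endothelial genes 98 kept their call under every alternative in which they were tested. An alternative that left a gene untested did not count against it. With the AT2 profile subtracted, 0 of 6 epithelial check genes and 3 of 13 AT2 markers were still tested. None of the 145 changed direction where tested. All except Itgb1 were named because they were called in these same sums, so this was partly set by the choice. Of 22 named mesenchymal genes only Itgb1, which was not called under any setting, stayed the same throughout. Depth limits the mesenchymal PBS values most, since 3 counts over the 3 mice equal 74.6 CPM.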

Other observations

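LPS-treated β1fl/fl littermates, all female and measured in their own library, had Car4 and Ednrb cells at 30.5, 30.8 and 29.2% of endothelial cells after thinning, beside 18.2, 16.8 and 18.6% in LPS-treated and 27.9, 29.8 and 30.6% in PBS-treated β1AT2-KO mice. Their Car4 level was 2162, 1992 and 1736 CPM, beside 1457, 1219.6 and 1157 and 2287, 2534 and 2889.8 CPM. Cells with the division genes were 2.35, 3.01 and 3.62% and cells with Prox1, Mmrn1 and Ccl21a 2.14, 2.03 and 2.50% of their endothelium. Zbtb16 was at 83.9, 58.2 and 47.2 CPM in their endothelial cells, beside 50.6, 53.9 and 31.02 in LPS-treated and 335, 288 and 215 in PBS-treated β1AT2-KO mice. Mesenchymal cells were 1.66, 2.15 and 5.85% of their sorted cells. Over all mesenchymal cells of that library Fn1 was at 2975 CPM, Cthrc1 at 88.0 CPM and Hhip at 248 CPM, beside 2666, 150 and 302 CPM in the LPS-treated β1AT2-KO library, whereas Thbs4 had no UMI there and 101 CPM in the latter. No difference between these genotypes was tested here.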
